A study of Mus musculus with 14 samples.

Results

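The IGF-binding proteins are 7 of the 17656 genes measured in liver RNA of WT and Ythdf1-/- mice. They were taken by their symbols, Igfbp1 to Igfbp7, and each symbol was found once. The set was chosen with earlier results of these data known. The 14 liver libraries came from C57BL/6 mice that were 8 weeks old. They comprised 3 WT and 3 Ythdf1-/- libraries after saline, and 4 WT and 4 Ythdf1-/- libraries after concanavalin A (ConA) at 8 mg/kg through the tail vein. ConA is a plant lectin that activates T cells and causes acute hepatitis in mice. Liver was taken 8 h after the injection in every group. YTHDF1 is a cytoplasmic reader of N6-methyladenosine in RNA. The mutation was made with CRISPR/Cas9, removes an inner exon and is carried by every cell of the animal, so that a difference between genotypes cannot be placed in hepatocytes or in blood cells. The level of each gene is given as TPM, its transcripts as a share of those of the whole library, with values that sum to 1000000 to 1000001 per library. TPM is scaled to transcript length and can be compared between genes.

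The tissue matched its label. Alb, the major hepatocyte product, had 30310 to 87030 TPM, and none of 7 hepatocyte markers was listed at 0 in any library. The read number behind each library is not part of the values used here, so no counting error can be given and the spread between libraries is the measure of error. Ythdf1 ranged from 12.0 to 13.9 TPM in the WT saline group and from 18.4 to 20.8 TPM in the Ythdf1-/- saline group. After ConA it ranged from 18.7 to 25.6 TPM in WT and from 15.5 to 26.2 TPM in Ythdf1-/- livers. Its mean was thus not lower in Ythdf1-/- livers with either treatment, and the reason was not tested. The genotype labels could therefore not be checked by this sum over the gene. WT saline replicates 2 and 3 were nearly alike, with a median absolute log2 ratio of 0.0735 over 8743 genes while 17 other pairs within a group had 0.120 to 0.418, and comparisons with WT saline were therefore also run with these 2 libraries averaged. The labels call the replicates independent samples but identify no animal, and whether these 2 libraries came from separate mice could not be told. Replicate 3 stood apart in both ConA groups, with median absolute log2 ratios to the other replicates of 0.383 to 0.418 in WT (0.176 to 0.191 among the others) and 0.252 to 0.400 in Ythdf1-/- (0.120 to 0.210), so that tests were also run without both of these libraries.

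IGF-binding proteins are secreted proteins that carry insulin-like growth factors (IGF1 and IGF2) in blood and tissue, prolong their life and control their access to the IGF1 receptor. The liver is the main source of circulating IGF1, which is produced under the control of growth hormone, and of the acid-labile subunit (Igfals) that joins IGF and IGFBP3 in a stable complex. IGFBP1 is the member whose production in hepatocytes is under rapid control: insulin represses it through FOXO1, and fasting, cytokines, hypoxia and cellular stress raise it.

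The promoters of Igfbp1, Igfbp2 and Igfbp4 are shown because together these genes supplied most of the IGF-binding protein transcripts in every group. In Ythdf1-/- saline, however, Igfbp7 stood above Igfbp1. All 7 members were matched to RefSeq start sites of mouse build GRCm38.p6. The 250 bases before each start were searched on both strands for AAAACAA, which is part of the insulin response element that FOXO factors bind, ACGTG, the core of hypoxia response elements, and TTCNNNGAA, the STAT motif. Capitals mark the matches, and all 3 regions lie on the plus strand, at chr11:7197537-7197786 for Igfbp1, chr1:72824230-72824479 for Igfbp2 and chr11:99040994-99041243 for Igfbp4.
Igfbp1: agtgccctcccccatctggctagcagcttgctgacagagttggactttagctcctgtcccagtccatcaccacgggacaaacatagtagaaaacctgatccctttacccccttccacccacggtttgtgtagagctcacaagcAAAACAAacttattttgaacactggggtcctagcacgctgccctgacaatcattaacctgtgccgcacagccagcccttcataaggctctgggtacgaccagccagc
Igfbp2: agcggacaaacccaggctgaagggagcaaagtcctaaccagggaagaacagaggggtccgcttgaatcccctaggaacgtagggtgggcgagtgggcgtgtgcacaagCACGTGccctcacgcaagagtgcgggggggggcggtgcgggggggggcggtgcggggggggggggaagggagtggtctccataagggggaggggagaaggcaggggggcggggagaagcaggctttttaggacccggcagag
Igfbp4: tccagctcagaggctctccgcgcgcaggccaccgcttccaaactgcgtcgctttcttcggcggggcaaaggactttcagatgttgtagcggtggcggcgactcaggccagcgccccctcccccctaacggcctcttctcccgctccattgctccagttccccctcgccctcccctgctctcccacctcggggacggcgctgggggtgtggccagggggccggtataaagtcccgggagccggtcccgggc
Igfbp1 was the 1 member with AAAACAA, which begins 107 bases before its start and is found in 8.11% of 32851 mouse promoter windows of this length. ACGTG was found in 2 of the 7 members, Igfbp2, where the matches on the opposite strands overlap in a palindrome, and Igfbp7, and in 16.6% of all windows. TTCNNNGAA was found in none of the members and in 7.02% of all windows. The promoter of Igfbp4 held none of the 3 motifs. A match describes these letters and not the binding of a factor. On the chromosome, Igfbp1 (chr11:7197787-7202546, plus strand) and Igfbp3 (chr11:7206086-7215498, minus strand) face each other with 3539 bases between their ends, and Igfbp2 (chr1:72824480-72852474, plus) and Igfbp5 (chr1:72858065-72874865, minus) face each other across 5590 bases.

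In bulk liver, fewer cells of a type and less RNA per cell cannot be told apart, and this holds for every level given here. In the saline livers, Igfbp4 and Igfbp2 supplied nearly all IGF-binding protein transcripts. In WT saline the mean level was 1343 ± 60.7 TPM for Igfbp4, 830.7 ± 130 for Igfbp2, 73.8 ± 17.6 for Igfbp1 and 21.1 ± 15.0 for Igfbp7 (SD, n = 3), and these 4 genes did not overlap with each other. The means of Igfbp5, Igfbp3 and Igfbp6 were 6.04, 5.59 and 1.60 TPM, and the ranges of neighbours in this order overlapped. In Ythdf1-/- saline livers, Igfbp7 (75.6 ± 21.0 TPM) stood above Igfbp1 (27.5 ± 8.82 TPM), while the latter overlapped with Igfbp3. After ConA, Igfbp1 reached the level of Igfbp4 in WT, where their ranges overlapped, and stood above it in Ythdf1-/-, where they did not. Below these, Igfbp2 and then Igfbp7 followed in both genotypes, with Igfbp6 and Igfbp3 overlapping under them and Igfbp5 lowest.

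**Figure D1:**
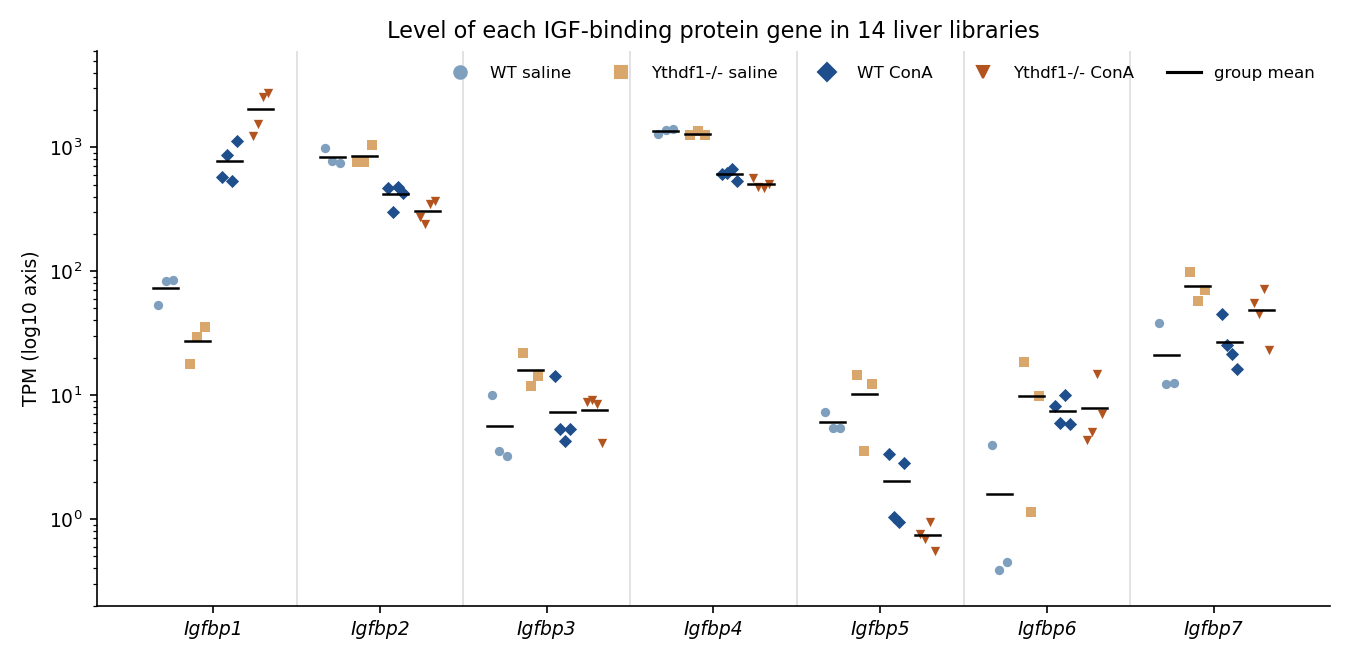
TPM of the 7 IGF-binding protein genes (log10 axis) in each of the 14 libraries, with points as libraries and bars as group means. Igfbp1 ranges from 17.95 TPM in a Ythdf1-/- saline liver to 2729 TPM in a Ythdf1-/- ConA liver, whereas Igfbp4 and Igfbp2 stay within 468 to 1391 and 242 to 1043 TPM.

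Each gene was also expressed as a share of the summed level of the 7 genes. The sum ranged from 2236 to 2368 TPM in WT saline, from 2174 to 2440 in Ythdf1-/- saline, from 1715 to 2113 in WT ConA, and from 2123 to 3632 in Ythdf1-/- ConA. Igfbp1 made up 2.26% to 3.77% of it in WT saline and 0.826% to 1.45% in Ythdf1-/- saline. After ConA its share was 31.2% to 53.3% in WT and 57.5% to 75.1% in Ythdf1-/-. The share of Igfbp4 went from 51.4% to 62.1% over the saline livers to 25.1% to 38.8% in WT ConA and 13.5% to 26.4% in Ythdf1-/- ConA livers. These shares are a description of the same TPM values that are tested gene by gene below.

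**Figure D2:**
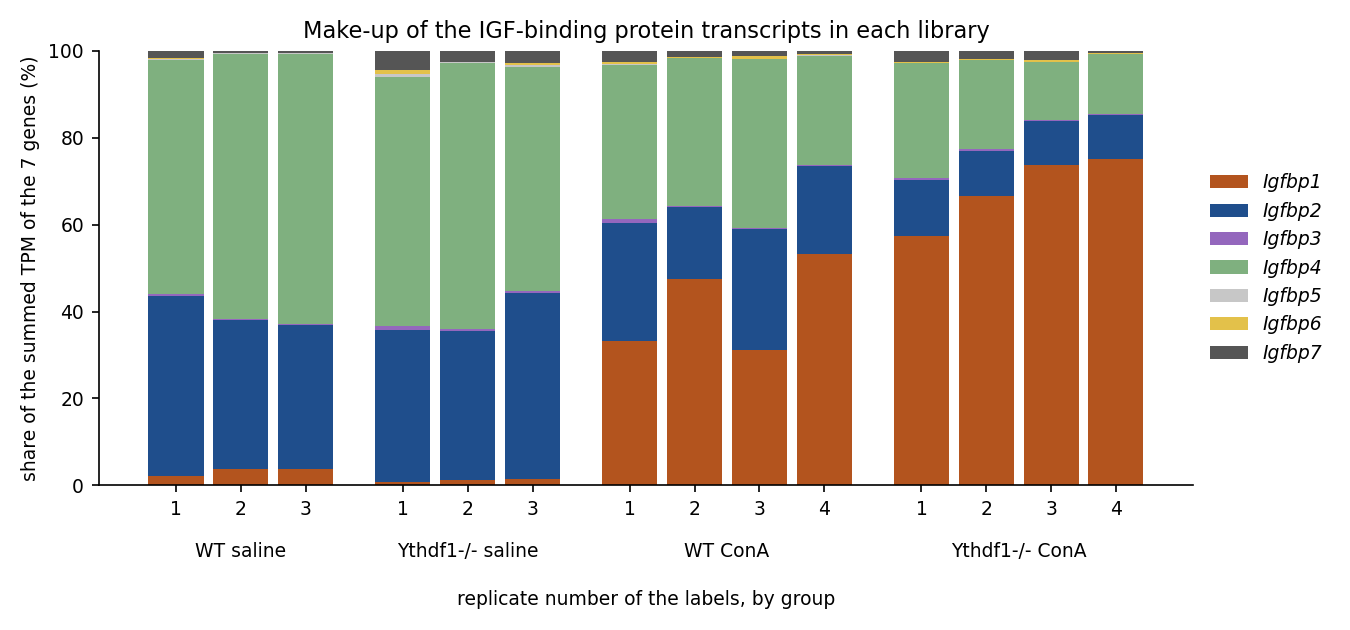
Share (%) of each IGF-binding protein gene in the summed TPM of the 7 genes, 1 bar per library with its replicate number, by group. Igfbp1 takes 0.826% to 3.77% of the bar in the 6 saline livers, 31.2% to 53.3% in WT ConA and 57.5% to 75.1% in Ythdf1-/- ConA.

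The first comparison asked how ConA changed these genes in WT liver. Igfbp1 and Igfbp6 rose, Igfbp2, Igfbp4 and Igfbp5 fell, and Igfbp3 and Igfbp7 did not pass the test. The tests were made with limma on log2(TPM + 1), and calls required a Benjamini-Hochberg adjusted p under 0.05 over every gene tested. The added 1 shrinks the fold changes of genes at low TPM. Among the 10768 genes tested, 53.0% were called, 22.0% higher and 31.0% lower, so that 2 members higher and 3 lower of 7 is close to the background. The median log2 fold change of the 7 members was 0.34, against -0.072 over all genes tested.

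Igfbp1, the insulin- and stress-regulated member, had 53.5, 83.4 and 84.4 TPM in the WT saline livers and 571, 861, 536 and 1126 TPM after ConA. Each ConA liver was far above each saline liver. The ratio of the mean levels was 10.5, and the log2 fold change was 3.34 (SE 0.28, adjusted p 1.41e-05), which ranked 105 from the top among all genes tested. Igfbp6, which binds IGF2 in preference to IGF1, had 3.96, 0.39 and 0.45 TPM in saline and 8.22, 5.98, 9.96 and 5.86 TPM after ConA. The groups did not overlap, although WT saline replicate 1 lay near the lowest ConA liver. The log2 fold change of Igfbp6 was 1.95 (SE 0.42, adjusted p 0.00345). Only replicate 1 of the saline livers reached 1 TPM, so Igfbp6 entered the test mainly through its ConA livers.

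Igfbp4, an inhibitor of IGF action that is cut by pappalysins, had 1275, 1364 and 1391 TPM in WT saline and 608, 616, 666 and 530 TPM after ConA. The replicates were tight and the groups lay far apart. Its log2 fold change was -1.15 (SE 0.12, adjusted p 4.88e-05). Igfbp2, a hepatocyte product that is also regulated by nutrition, had 981, 767 and 744 TPM in saline and 465, 298, 478 and 428 TPM after ConA. No ConA liver reached the lowest saline liver, and the log2 fold change was -1.005 (SE 0.19, adjusted p 0.00158). Igfbp5, which binds extracellular matrix, had 7.30, 5.41 and 5.41 TPM in saline and 3.37, 1.04, 0.95 and 2.82 TPM after ConA. These groups did not overlap either, and the log2 fold change was -1.29 (SE 0.30, adjusted p 0.00546). The 5 calls in WT liver held in each of the 16 alternative fits, which included leaving out any library.

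Igfbp3, the main serum carrier of IGF1, had 10.01, 3.53 and 3.22 TPM in WT saline and 14.2, 5.29, 4.27 and 5.28 TPM after ConA. Its groups overlapped, with a log2 fold change of 0.34 (95% confidence interval -0.63 to 1.296, adjusted p 0.537), and without WT ConA replicate 1 it was -0.0053. Igfbp7, a relative with low affinity for IGF that is deposited around vessels, had 38.4, 12.3 and 12.5 TPM in saline and 45.2, 25.2, 21.4 and 16.2 TPM after ConA. In both groups replicate 1 stood above the others, and the log2 fold change of 0.44 (95% confidence interval -0.53 to 1.41) had an adjusted p of 0.416.

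The same comparison in Ythdf1-/- liver asked how ConA changed these genes without YTHDF1. Igfbp1 rose and Igfbp2, Igfbp3, Igfbp4 and Igfbp5 fell, while Igfbp6 and Igfbp7 did not pass the test. Of the 10988 genes tested, 64.6% were called, 33.9% higher and 30.7% lower, against 1 higher and 4 lower of the 7 members. The median log2 fold change of the members was -0.98, and that of all genes tested was 0.069.

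Igfbp1 had 17.95, 29.15 and 35.4 TPM in the Ythdf1-/- saline livers and 1220, 1552, 2563 and 2729 TPM in the Ythdf1-/- ConA livers. The lowest ConA liver was above the highest saline liver by a wide margin. The ratio of the means was 73.4, and the log2 fold change of 6.12 (SE 0.29, adjusted p 4.78e-08) ranked 25 from the top of the genes tested. Igfbp5 had 14.5, 3.54 and 12.4 TPM in saline and 0.76, 0.69, 0.95 and 0.55 TPM after ConA. Its saline livers varied widely, but all lay above every ConA liver. The log2 fold change was -2.50 (SE 0.35, adjusted p 1.01e-04), a fold of 0.177 on the tested scale of TPM + 1. The mean TPM was 13.8 times lower after ConA, a ratio that rests on ConA levels under 1 TPM. Igfbp5 thus entered the test through its saline livers alone, and its call depends on its being high there.

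Igfbp4 had 1245, 1350 and 1255 TPM in Ythdf1-/- saline and 561, 475, 468 and 502 TPM in the ConA group, which gave a log2 fold change of -1.36 (SE 0.11, adjusted p 2.04e-06). Igfbp2 had 757, 757 and 1043 TPM in saline and 273, 242, 347 and 367 TPM with ConA, for a log2 fold change of -1.47 (SE 0.17, adjusted p 2.83e-05). For both genes every ConA liver was below every saline liver. Igfbp3 had 21.9, 11.8 and 14.3 TPM in saline and 8.85, 9.06, 8.48 and 4.12 TPM after ConA. These values did not overlap, and the log2 fold change was -0.98 (SE 0.27, adjusted p 0.00788). The 5 calls held in every alternative fit in which the gene was tested.

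Igfbp6 had 18.4, 1.14 and 9.82 TPM in Ythdf1-/- saline and 4.31, 5.04, 14.8 and 7.02 TPM after ConA. The saline livers alone spanned more than all ConA livers, and the log2 fold change was 0.060 (95% confidence interval -1.33 to 1.45, adjusted p 0.938). It was -0.86 without Ythdf1-/- saline replicate 2 and -0.27 without Ythdf1-/- ConA replicate 3. Igfbp7 had 98.8, 57.9 and 69.95 TPM in saline and 54.9, 45.1, 72.0 and 22.9 TPM with ConA, and its log2 fold change was -0.70 (95% confidence interval -1.41 to 0.015, adjusted p 0.0786). Without Ythdf1-/- ConA replicate 3 it was -0.92 with an adjusted p of 0.0258.

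**Figure D3:**
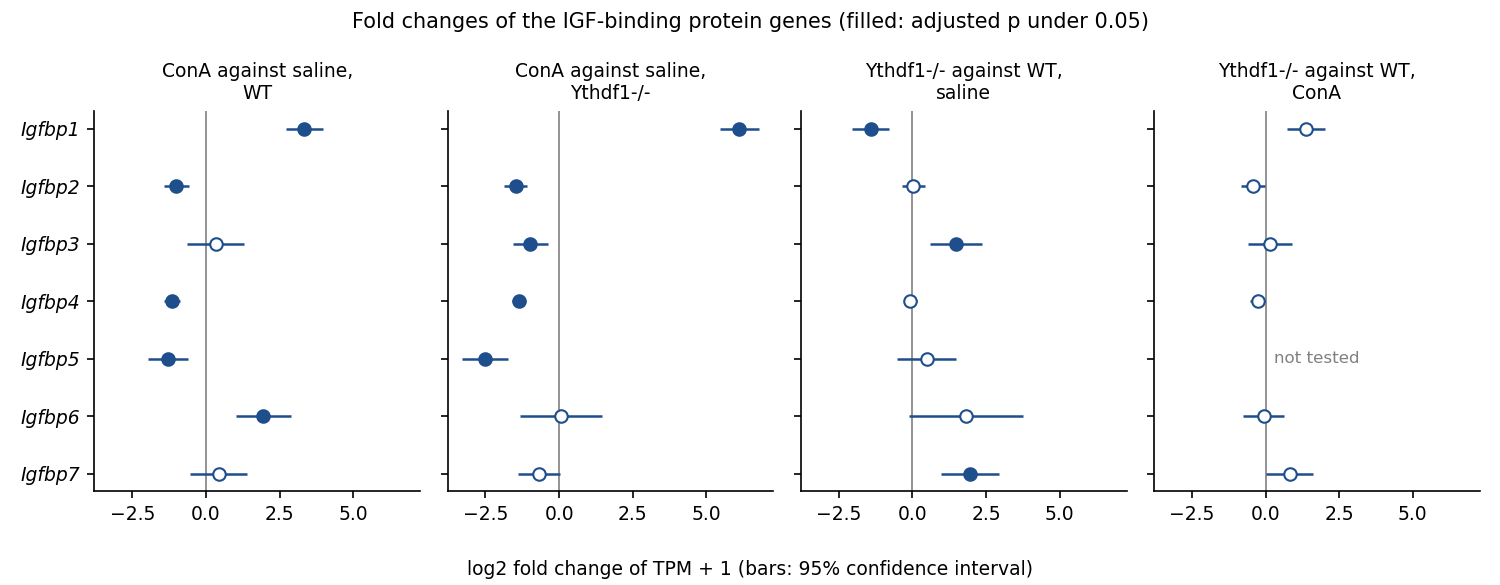
Log2 fold change of TPM + 1 with its 95% confidence interval for each gene in 4 comparisons, with filled points for an adjusted p under 0.05. Igfbp1 stands at 3.34 in WT and 6.12 in Ythdf1-/- after ConA, at -1.41 between genotypes in saline and at 1.37 between genotypes after ConA.

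The response to ConA was then compared between the genotypes with an interaction term over all 14 libraries. Igfbp1 was the 1 of 7 members called, where 4.78% of 11327 genes were called. Its interaction was 2.78 on the log2 scale (SE 0.46, 95% confidence interval 1.81 to 3.75, adjusted p 0.0114), which ranked 11 from the top. The median interaction of all genes tested was 0.14, and with rescaled libraries it was 0.029 and that of Igfbp1 2.65 (adjusted p 0.0303). The call was lost at an adjusted p of 0.0503 without WT saline replicate 3, with an interaction of 2.67, and it held in the other 21 alternatives. The other 6 members had interactions of -1.89 (Igfbp6, adjusted p 0.192), -1.32 (Igfbp3, 0.156), -1.21 (Igfbp5, 0.162), -1.14 (Igfbp7, 0.248), -0.47 (Igfbp2, 0.289) and -0.20 (Igfbp4, 0.403), all of them negative. None of these passed the test, so a different response of these genes in the genotypes was not shown, including Igfbp6 and Igfbp3, which were called in 1 genotype only.

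**Figure D4:**
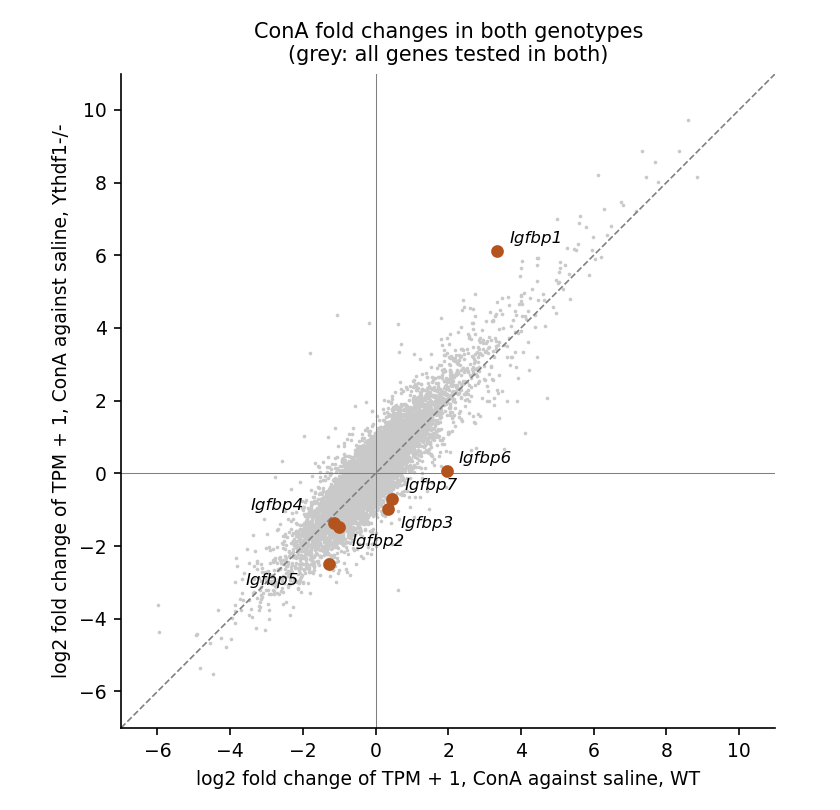
Log2 fold change of TPM + 1 after ConA in WT (x axis) and Ythdf1-/- liver (y axis), with all genes tested in both in grey, the 7 IGF-binding protein genes labelled and the dashed line at equal change. Igfbp1 lies above the line at 3.34 and 6.12, and the other 6 lie below it.

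Both ends of the Igfbp1 response differed between the genotypes in value. In saline, Igfbp1 was lower in Ythdf1-/- (17.95 to 35.4 TPM) than in WT (53.5 to 84.4 TPM), with no overlap. The mean was 2.68 times lower and the log2 fold change was -1.41 (SE 0.27, adjusted p 0.0207). After ConA, Igfbp1 was higher in Ythdf1-/- (1220 to 2729 TPM) than in WT (536 to 1126 TPM), again with no overlap. The ratio of the means was 2.61 and the log2 fold change was 1.37 (SE 0.30, 95% confidence interval 0.71 to 2.02), which missed the threshold at an adjusted p of 0.0669 (unadjusted limma p 7.78e-04). Over 16 alternative fits the adjusted p of this difference ran from 0.0168, with all 14 libraries in the fit, to 0.175. These comparisons and the interaction share their libraries.

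In the saline livers, 3 of 7 members were called between the genotypes, 2 higher and 1 lower in Ythdf1-/-, where 19.2% of 10459 genes were called, 6.30% higher and 12.9% lower. Of all calls in this comparison 32.8% were higher, and 51.5% were with libraries rescaled to their median ratio, under which the 3 members kept their calls. Besides the lower Igfbp1, Igfbp3 was higher at 21.9, 11.8 and 14.3 TPM in Ythdf1-/- against 10.01, 3.53 and 3.22 TPM in WT (log2 fold change 1.47, SE 0.38, adjusted p 0.0382). Igfbp7 was higher at 98.8, 57.9 and 69.95 TPM against 38.4, 12.3 and 12.5 TPM (log2 fold change 1.96, SE 0.42, adjusted p 0.0253). None of the 3 genes overlapped between the groups. They were picked as called and the share of all genes without overlap was not counted, so this adds no support to the calls. All 3 calls were lost when WT saline replicates 2 and 3 were averaged, at log2 fold changes of -1.31 for Igfbp1 (adjusted p 0.0956), 1.25 for Igfbp3 (0.137) and 1.70 for Igfbp7 (0.106). They were also lost together without WT saline replicate 2, WT saline replicate 3 or Ythdf1-/- saline replicate 1, where the adjusted p of Igfbp1 was 0.0957, 0.102 and 0.0519. Without Ythdf1-/- saline replicate 2 the calls of Igfbp3 (0.0629) and Igfbp7 (0.0517) were lost and those of Igfbp5 (1.04, adjusted p 0.0252) and Igfbp6 (2.75, adjusted p 0.0484) were gained. Without Ythdf1-/- saline replicate 3 the call of Igfbp3 was lost (0.0567), as it was with all 14 libraries in the fit (0.0732), robust eBayes (0.0598) or no filter on TPM (0.0780), where Igfbp7 was lost too (0.0554).

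The 2 most abundant members in saline liver were close in both genotypes. Igfbp4 differed by -0.065 (95% confidence interval -0.27 to 0.14, adjusted p 0.617) and Igfbp2 by 0.031 (95% confidence interval -0.36 to 0.42, adjusted p 0.909) on the log2 scale. Igfbp5 differed by 0.49 (adjusted p 0.422) and Igfbp6 by 1.83 (95% confidence interval -0.10 to 3.76, adjusted p 0.145), and both overlapped between the groups.

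After ConA, 0 of the 6 members tested were called between the genotypes with limma, where 0.428% of 10519 genes were called (80% of the calls higher as deposited, 48.1% with rescaled libraries). An unadjusted p under 0.05 was found for 4 of the 6, Igfbp1 (7.78e-04), Igfbp2 (0.0376), Igfbp7 (0.0429) and Igfbp4 (0.0451). Over all genes, 1753 of the 10519 tested had such a p. With all 14 libraries in the fit, 1 member, Igfbp1, was called. Igfbp2 differed by -0.44 on the log2 scale (95% confidence interval -0.85 to -0.030), Igfbp4 by -0.27 (-0.53 to -0.0070), and Igfbp7 by 0.82 (0.031 to 1.60). The values of these 3 genes overlapped between the groups. Igfbp3 differed by 0.15 and Igfbp6 by -0.062. Igfbp5 was too low to be tested, with 0.55 to 0.95 TPM in Ythdf1-/- and 0.95 to 3.37 TPM in WT.

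The levels of cell type markers were set beside the members. The summed level of 7 hepatocyte markers lay between 104370 and 125080 TPM in WT saline and between 98917 and 119610 in Ythdf1-/- saline. It lay between 55000 and 77962 TPM in WT ConA and between 49213 and 61912 in Ythdf1-/- ConA, so that it was lower after ConA, as were Igfbp2 and Igfbp4, while Igfbp1 moved the other way. Alb, Ttr and Apoa1, which encode plasma proteins, made up 93.6% to 98.2% of this sum. By gene, 1 of the 7 markers rose and 5 fell in each genotype. The one that rose was Tat, a tyrosine-degrading enzyme (log2 fold change 0.78 in WT, adjusted p 0.0129, and 0.56 in Ythdf1-/-, adjusted p 0.00305), and Hnf4a, a hepatocyte transcription factor, had 0.21 (adjusted p 0.347) and 0.33 (adjusted p 0.0539). The 7 neutrophil markers summed to between 4.29 and 10.1 TPM in the saline livers, between 323 and 572 in WT ConA and between 421 and 975 in Ythdf1-/- ConA. Of these, 6 of 7 rose in each genotype, and Retnlg, Mmp8 and Ngp were listed at 0 in some libraries. The sum of 7 markers of Kupffer cells, the resident macrophages of the liver, was 12.6 to 50.4 TPM in the WT livers given ConA against 86.4 to 145 with saline, and in Ythdf1-/- livers 9.13 to 39.6 against 39.4 to 89.0 TPM. By gene, 6 of the 7 fell in WT and 3 in Ythdf1-/- liver. The sum of 6 cholangiocyte markers was also lower after ConA, at 18.7 to 32.2 against 46.6 to 57.0 TPM in WT and 36.9 to 56.4 against 83.8 to 89.5 TPM in Ythdf1-/-. Spp1 made up 54.7% to 93.0% of that sum, and by gene 3 of 5 tested markers rose and 1 fell in WT, while 1 rose and 1 fell in Ythdf1-/- liver. The 6 T cell markers summed to 0.95 to 5.72 TPM over the 14 libraries. Over all genes tested after ConA, 22.0% were called higher and 31.0% lower in WT, and 33.9% and 30.7% in Ythdf1-/- liver. These shares are the background for each marker list. The part of the marker shifts in the Igfbp values was not tested.

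Igfbp6 moved with markers of the mesothelium, the cell layer that covers the liver. The sum of Msln, Upk3b, Wt1 and Gpm6a lay between 0.89 and 12.2 TPM in WT saline, 1.68 and 24.0 in Ythdf1-/- saline, 9.83 and 12.9 in WT ConA, and 7.52 and 20.3 in Ythdf1-/- ConA. None of the 4 was listed at 0 in any library, and Msln and Upk3b made up 58.3% to 95.6% of the sum. Of 3 tested, 2 rose after ConA in WT and 0 in Ythdf1-/- liver (limma, with 0 at an unadjusted p under 0.05 in the latter). Over all genes, 7488 of the 10988 tested in Ythdf1-/- liver had such a p. Over the 14 libraries Igfbp6 spanned 47.3-fold and the marker sum 27.0-fold, while the ratio of Igfbp6 to the sum stayed within 0.326 to 1.01. The 3 saline livers with the most Igfbp6, WT replicate 1 and Ythdf1-/- replicates 1 and 3, were also the 3 with the highest mesothelial sum. Within the WT saline group the ratio was 0.326 to 0.506 and within the WT ConA group 0.463 to 1.01, and these ranges overlap. The part of mesothelial tissue in the called rise of Igfbp6 was not tested.

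Igfbp7 and Igfbp3 were also set beside markers of hepatic stellate cells, the vitamin A-storing pericytes of the liver. The sum of 8 stellate cell markers lay between 34.5 and 135 TPM in WT saline, 160 and 257 in Ythdf1-/- saline, 57.3 and 136 in WT ConA, and 97.5 and 190 in Ythdf1-/- ConA, and none of the 8 was listed at 0. Dcn and Ecm1, a matrix proteoglycan and a matrix protein, made up 73.1% to 80.0% of this sum in the saline livers and 86.9% to 90.4% after ConA, so that it does not stand for the list. Lrat and Colec11 were lower in each ConA liver than in any saline liver of the same genotype. Lrat, which stores vitamin A as esters, went from 0.54 to 1.72 TPM to 0.12 to 0.22 TPM in WT and from 1.93 to 3.22 TPM to 0.13 to 0.44 TPM in Ythdf1-/- liver. Colec11, a collectin, fell in both genotypes (log2 fold change -1.58, adjusted p 0.0136, and -2.48, adjusted p 4.34e-05). Of the list, 1 of 4 tested markers was called lower in WT and 5 of 8 in Ythdf1-/- liver, and 0 were called higher in either. The list was mixed in direction. In WT the other tested markers had positive log2 fold changes that were not called, 0.67 for Rgs5, 0.72 for Dcn and 0.78 for Ecm1. In Ythdf1-/- liver mean Dcn went from 69.5 to 79.6 TPM and mean Rgs5 from 6.74 to 9.15 TPM after ConA, while mean Ecm1 went from 99.5 to 66.2 TPM.

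Igfbp7 spanned 8.01-fold over the 14 libraries and its ratio to the sum of the 8 stayed within 0.235 to 0.386, a ratio set mainly by Dcn and Ecm1. Beside the sum of the other 6 markers, a split chosen after their values were seen, it was 1.09 to 1.42 in WT saline, and 1.56 to 1.84 in Ythdf1-/- saline. After ConA it was 1.86 to 3.50 in WT and 2.21 to 3.70 in Ythdf1-/-. Saline and ConA livers did not overlap in this ratio, nor did the saline livers of the genotypes. Beside the sum of all 8 the ratio was 0.285 to 0.358 in WT saline and 0.312 to 0.385 in Ythdf1-/- saline, which overlapped. Whether Igfbp7 differed between the saline groups beside these markers therefore turned on the markers summed. Beside the sum of the sinusoidal endothelial markers its ratio was 0.512 to 1.16 in WT saline. In Ythdf1-/- saline that ratio was 1.39 to 1.53, which did not overlap. The ratio of Igfbp3 to the sum of all 8 stellate cell markers was 0.0742 to 0.102 in WT saline and 0.0636 to 0.0852 in Ythdf1-/- saline. These overlapped, and in WT ConA it was 0.0632 to 0.105. In Ythdf1-/- ConA it was 0.0423 to 0.0504, lower than in each library of the other groups. Beside the other 6 markers it was 0.285 to 0.405 in WT saline, and 0.318 to 0.407 in Ythdf1-/- saline. After ConA it was 0.607 to 0.908 in WT and 0.408 to 0.444 in Ythdf1-/-, and no ConA library was lower than a saline library. In Ythdf1-/- against WT saline, 3 of the 3 tested smooth muscle markers were called higher (sum of 4 markers 10.8 to 11.5 against 1.96 to 6.64 TPM), as were 5 of 7 tested sinusoidal endothelial, 3 of 8 stellate cell and 2 of 4 tested cholangiocyte markers, where 6.30% of all genes were called higher. Of the other lists, 0 of 3 tested mesothelial, 0 of 7 hepatocyte, 0 of 4 tested neutrophil and 0 of 7 Kupffer cell markers were called in limma, the last with a median log2 fold change of -0.58. An unadjusted p under 0.05 was found for 0, 1, 0 and 3 of these, and for 4056 of the 10459 genes tested. The alternative fits, among them the one with WT saline replicates 2 and 3 averaged, were not read for the markers. The smooth muscle sum was 6.64 TPM in WT saline replicate 1 and 1.96 and 3.15 TPM in replicates 2 and 3. The part of any of these cell types in the genotype difference was not tested.

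**Figure D5:**
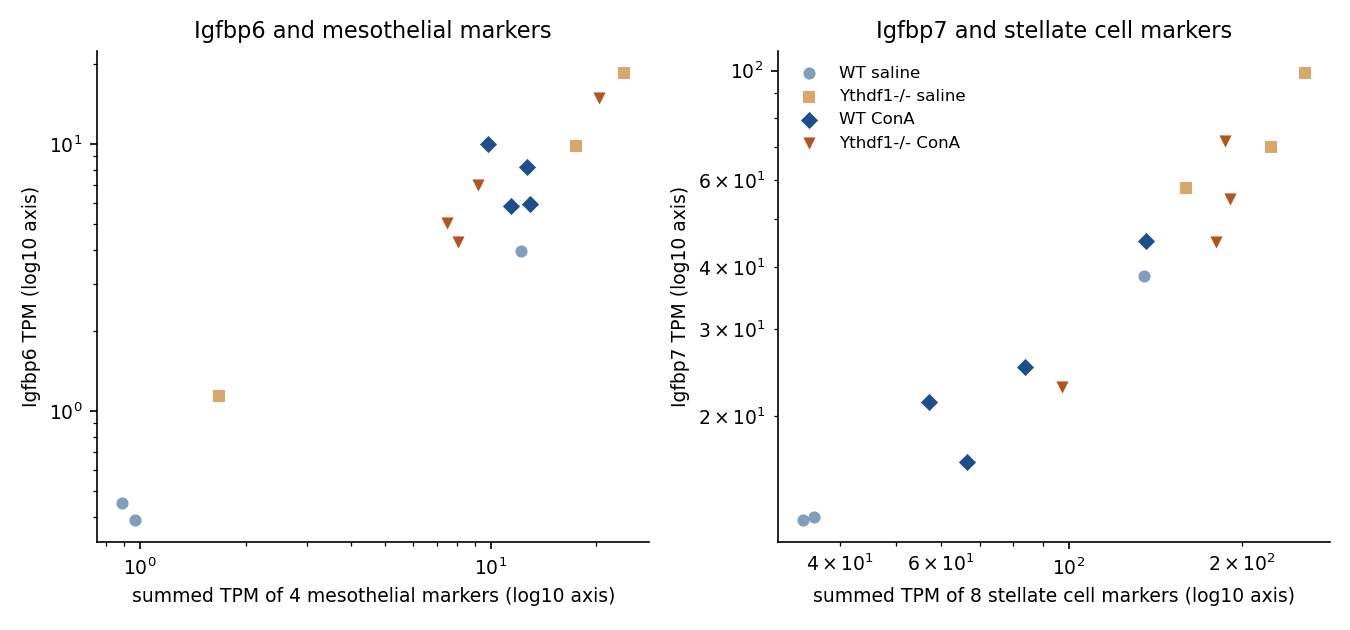
Igfbp6 against the summed TPM of 4 mesothelial markers (left) and Igfbp7 against that of 8 stellate cell markers (right), 1 point per library, with log10 axes. The ratio stays within 0.326 to 1.01 for Igfbp6 and 0.235 to 0.386 for Igfbp7 over the 14 libraries, and Dcn and Ecm1 make up 73.1% to 90.4% of the stellate cell sum.

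The ratio of Igfbp5 to the sum of all 8 markers lay between 0.0541 and 0.157 in WT saline, 0.0222 and 0.0565 in Ythdf1-/- saline, 0.0124 and 0.0424 in WT ConA, and 0.00384 and 0.00564 in Ythdf1-/- ConA, a 40.9-fold span over the libraries. Saline and ConA livers did not overlap in this ratio in either genotype. Beside the other 6 markers they overlapped in WT (0.208 to 0.620 in saline and 0.124 to 0.324 after ConA) and did not in Ythdf1-/- liver (0.101 to 0.276 and 0.0338 to 0.0586).

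The genes whose levels followed the members most closely were found by the root mean square difference between centred log2(TPM + 1) values over the 14 libraries, among 11327 genes. For Igfbp1 they were Atf3 (0.50), a stress-induced transcription factor, Serpina3n (0.57), an acute-phase protease inhibitor, and Rnd1 (0.58). Atf3 lay between 0.73 and 1.45 TPM in the saline livers, between 24.1 and 47.9 in WT ConA and between 70.1 and 188 in Ythdf1-/- ConA. Igfbp4 was followed by Abhd12 (0.088), Naxd (0.11) and Syngr2 (0.11), and Igfbp2 by Cyp4f13 (0.16), Slc2a8 (0.18) and Fdx1 (0.19). For Igfbp3 they were Col14a1 (0.23), Col1a2 (0.27) and Hand2 (0.28), of which Col14a1 and Col1a2 encode collagens. For Igfbp6 they were Msln (0.28) and Upk3b (0.39), both in the mesothelial list, and Aebp1 (0.46), and for Igfbp5 Cyp2a4 (0.39), Srebf1 (0.40) and Fmo5 (0.42). These are descriptions over libraries that share their groups.

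The ligand and its partners were read from the same fits. Of 16 genes of the IGF axis, 13 were tested in WT liver, and 2 rose and 8 fell after ConA. Of all genes tested there, 22.0% were called higher and 31.0% lower. Igf1, the growth factor itself, fell from 145 to 162 TPM in WT saline to between 69.96 and 104 TPM (log2 fold change -0.78, SE 0.15, adjusted p 0.00225). Igfals fell from 110 to 148 TPM to 5.74 to 12.4 TPM (log2 fold change -3.86, SE 0.23, adjusted p 2.00e-06). Ghr, the growth hormone receptor, fell from 213 to 225 TPM to 65.8 to 90.0 TPM (log2 fold change -1.47, SE 0.13, adjusted p 2.31e-05). Grb14, an adaptor that inhibits the insulin receptor, fell by 2.17 and Irs1, an insulin receptor substrate, by 1.51 on the log2 scale. Cish, a STAT5 target that dampens growth hormone signalling, rose by 1.04, and Irs2, the other main receptor substrate in liver, by 0.50 (adjusted p 0.0407). The call of Irs2 was lost when any library other than WT ConA replicate 3 was left out, while Igf1, Igfals, Ghr, Grb14, Irs1 and Cish were called in each of these fits. With WT saline replicates 2 and 3 averaged, these 6 were the genes called. Igf1r, the receptor of IGF1, stayed at 0.10 to 0.53 TPM in all livers and Igf2 at 0.11 to 0.67 TPM.

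In Ythdf1-/- liver, 5 of 14 tested genes of the axis rose and 5 fell, where 33.9% of all genes tested were called higher and 30.7% lower. Igf1 went from 147 to 252 TPM to 65.4 to 95.5 TPM (log2 fold change -1.24, SE 0.19, adjusted p 1.98e-04) and Igfals from 106 to 144 TPM to 7.58 to 12.4 TPM (-3.62, adjusted p 4.21e-08). Irs2 rose from 2.75 to 3.79 TPM to 9.13 to 16.3 TPM (1.53, adjusted p 5.89e-05). It was the 1 axis gene with a called interaction (1.03, adjusted p 0.0471), where 4.78% of all genes tested were called. That call was held in 8 of 22 alternatives, with an adjusted p of up to 0.137, and it was lost when any saline library, WT ConA replicate 2 or 3, or Ythdf1-/- ConA replicate 2 or 4 was left out. Since Igf1 fell and Igfbp1 rose, the ratio of Igfbp1 to Igf1 transcripts went from 0.330 to 0.576 in WT saline to 5.52 to 12.3 in WT ConA, and from 0.0714 to 0.198 in Ythdf1-/- saline to 12.8 to 39.2 in Ythdf1-/- ConA. No library of a ConA group overlapped with a saline library, and the ConA groups of the genotypes did not overlap with each other. Between the genotypes in saline, Insr and Ghr of 13 tested axis genes were called, both lower in Ythdf1-/-, where 19.2% of all genes tested were called. Ghr had 166 to 174 TPM in Ythdf1-/- saline (log2 fold change -0.35, adjusted p 0.0274). Both calls were lost with rescaled libraries (adjusted p 0.0562 for Ghr and 0.0597 for Insr), with all 14 libraries in the fit (0.115 and 0.439), with WT saline replicates 2 and 3 averaged, and without WT saline replicate 2 or 3 or Ythdf1-/- saline replicate 1 or 2, where the adjusted p of Ghr was 0.0643 to 0.126. After ConA, 0 of 12 were called with limma, where 0.428% of all genes tested were called. Of the 12, 2 had an unadjusted p under 0.05 (Irs2 and Jak2), as had 1753 of the 10519 genes tested. These 2 were called with all 14 libraries in the fit.

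Among 9 IGFBP proteases and their inhibitors, few reached 1 TPM. Pappa and Pappa2, the pappalysins that cut IGFBP4 and IGFBP5, were at 0.04 TPM or less in every liver. Adamts1 and Adam9, metalloproteases reported to cut several IGF-binding proteins, were the 2 tested in WT liver. Both rose, where 22.0% of all genes tested were called higher. Adamts1 went from 0.61 to 0.88 TPM to 3.50 to 9.44 TPM (log2 fold change 2.16, SE 0.27, adjusted p 1.45e-04), and Adam9 from 16.3 to 19.6 TPM to 17.3 to 49.7 TPM (0.95, adjusted p 0.0322). The call of Adam9 in WT held in 7 of 16 alternatives and was lost, at an adjusted p of up to 0.0984, without a filter on TPM, with WT saline replicates 2 and 3 averaged and when any library other than WT ConA replicate 3 was left out. Both rose in Ythdf1-/- liver too, by 2.65 (adjusted p 2.10e-07) and 2.16 (adjusted p 1.62e-06), while Htra3 fell.

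Of 11 relatives that share the IGFBP domain, 3 were tested in WT liver. Ccn1, a matricellular protein, fell from 6.96 to 8.24 TPM to 4.04 to 5.93 TPM (log2 fold change -0.57, SE 0.15, adjusted p 0.0113). The other 2 did not pass, where 53.0% of all genes tested were called. In Ythdf1-/- liver Ccn1 rose from 5.06 to 7.83 TPM to 9.89 to 47.7 TPM (1.84, adjusted p 0.00313). Its interaction of 2.41 (SE 0.53, adjusted p 0.0280) was the 1 called of 6, where 4.78% of all genes tested were called. The WT call held in 11 of 16 alternatives. It was lost with all 14 libraries in the fit (adjusted p 0.210), without WT saline replicate 2 (0.0614) or 3 (0.0542) and with these averaged (0.0563). The call of the interaction held in 16 of 22, and was lost without WT saline replicate 2 or 3 or with these averaged, and without Ythdf1-/- saline replicate 1 or 2 or Ythdf1-/- ConA replicate 4, at an adjusted p of 0.0536 to 0.0995.

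Of 8 transcription regulators known to act on Igfbp1, all were tested. In WT, 1 rose and 3 fell, where 22.0% of all genes tested were called higher and 31.0% lower. In WT liver Atf4, the factor of the integrated stress response, rose from 82.8 to 93.2 TPM to 189 to 213 TPM (log2 fold change 1.15, adjusted p 3.76e-05). Nr1h4, the bile acid receptor, fell by 1.80, Ppargc1a, a coactivator of the fasting response, fell by 1.08 and Foxa2, a liver-enriched forkhead factor, fell by 0.85 on the log2 scale. The call of Foxa2 was lost without a filter on TPM, with WT saline replicates 2 and 3 averaged and without any 1 of the WT saline libraries or WT ConA replicate 4, at an adjusted p of up to 0.0761. Foxo1 had log2 fold changes of 0.024 in WT (adjusted p 0.947) and 0.58 in Ythdf1-/- liver (adjusted p 0.0167, and 0.0586 or 0.0596 without Ythdf1-/- saline replicate 2 or 3). In Ythdf1-/- liver 3 of the 8 rose and 2 fell, where 33.9% of all genes tested were called higher and 30.7% lower. Hif1a, a subunit of the hypoxia-inducible factor, rose there from 7.69 to 8.60 TPM to 25.6 to 38.8 TPM (log2 fold change 1.83, SE 0.15, adjusted p 2.18e-06), a call that held in all 15 alternatives. In WT it had 8.35 to 9.79 TPM in saline and 5.84 to 17.4 TPM after ConA (0.48, adjusted p 0.242), and its interaction of 1.35 missed the threshold (adjusted p 0.0530). Atf4 rose in Ythdf1-/- liver by 1.43 on the log2 scale, and Nr1h4 fell by 2.71. No interaction was called among the 8 with limma, where 4.78% of all genes tested were called. An unadjusted p under 0.05 was found for 4 of the 8, and for 2862 of the 11327 genes tested. Transcript levels do not measure the activity of these factors.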

How the data were processed

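Liver RNA was read by the authors in single-end mode (50 bases, BGISEQ-500). The deposited values are TPM for the same 17656 genes per library. The submitters' processing notes name Bowtie2, RSEM 1.3.1 and GRCm38.p6, while the methods of the study name STAR and HTSeq. How TPM was derived is therefore open, and the count-based test of the study could not be used. The members and gene lists were chosen with earlier results of these data known.

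Groups were compared in R 4.3.3 with limma 3.58.1 (eBayes with an intensity trend) on log2(TPM + 1). Tested genes had 1 TPM or more in no fewer libraries than the smaller group holds, and Benjamini-Hochberg adjustment ran over all of them with a threshold of 0.05. A gene could pass this filter through 1 group alone. Among others, Igfbp5 in Ythdf1-/- liver and Irs1 in WT passed through saline, and Adamts1 in WT through ConA. The call of such a gene depends on its being high in that group. The procedure was tested on simulated data. The labels call the replicates independent samples without identifying animals, so p-values measure the spread between these samples. Named are the 7 members, Igf1, Igfals, Ghr and Igf1r, up to 3 called genes per list and direction with the largest fold change in WT ConA against WT saline, and the 3 genes nearest in pattern to each member called after ConA. Igf2, Jak2, Insr, Pappa, Pappa2, Htra3, Foxo1, Hif1a and the cell type markers Hnf4a, Lrat, Rgs5, Dcn and Ecm1 were named after their values were seen. Alternatives were another pseudocount (0.1), a stricter filter (5 TPM) or none, rescaled libraries, all 14 libraries in the fit, robust eBayes, a replicate block, each library left out, both ConA replicates 3 left out, and WT saline replicates 2 and 3 averaged. Of the 50-base stretches of its transcript, 97.0% for Igfbp4, 97.6% for Igfbp7 and 100% for the other 5 members occurred in no other gene. Figures used Python 3.11.15 and matplotlib 3.10.9.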

Additional observations from a re-analysis of the deposited data

Results flagged for a closer look

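Igfbp3 had a library that stood apart in both ConA groups. WT ConA replicate 1 had 14.24 TPM, while the other 3 livers of the group had 4.27 to 5.29 TPM, and the gap took 0.898 of the range of the group. Ythdf1-/- ConA replicate 4 had 4.12 TPM, below the 8.48 to 9.06 TPM of the other 3, with a gap of 0.883 of the range. Both gaps were above the 95% critical value of Dixon's test for 4 samples. Of the 14 sets of 4 values examined, 2 were above it, and chance puts about 5% of sets there. The stellate cell marker sum, most of it Dcn and Ecm1, was the highest of its group in WT ConA replicate 1 (135.9 TPM) and the lowest of its group in Ythdf1-/- ConA replicate 4 (97.5 TPM).

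The response of Igfbp1 to ConA differed between the genotypes, with an interaction of 2.78 on the log2 scale in limma (adjusted p 0.0114). It was higher in the 4 Ythdf1-/- ConA livers than in each of the 4 WT ConA livers, and lower in the 3 Ythdf1-/- saline livers than in each of the 3 WT saline livers.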

How the results depend on the processing

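The 5 members called in each genotype after ConA were called in every alternative in which they were tested. Counts that left the range of 1.5 times the reported value were as follows. With WT saline replicates 2 and 3 averaged, 6 IGF axis genes were called in WT ConA against WT saline (10 as reported), 0 members and 0 axis genes in Ythdf1-/- against WT saline (3 and 2), and 0 axis genes in the interaction (1). Without a filter on TPM, 1 member was called between the saline groups and 0 axis genes in the interaction. No axis gene (0) was called between the saline groups with rescaled libraries or with all 14 libraries in the fit, which called 1 member and 2 axis genes between the ConA groups (0 and 0). With both ConA replicates 3 left out, the interaction called 2 axis genes. Leaving out 1 library at a time gave 0 to 3 members and 0 to 3 axis genes between the saline groups, 0 to 1 members and 0 to 1 axis genes in the interaction, 0 and 0 between the ConA groups, 5 and 7 to 12 in WT, and 5 to 6 and 9 to 11 in Ythdf1-/- liver. The cause of these changes was not tested, and the fits that left out or averaged libraries also had fewer samples.

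The direction of 14 alternative values of single members changed, none of them in a called difference (limma log2 fold changes). Leaving out 1 library at a time, Igfbp3 in WT ConA against saline ran from -0.00529 (without WT ConA replicate 1) to 0.779, and Igfbp6 in Ythdf1-/- ConA against saline from -0.860 (without Ythdf1-/- saline replicate 2) to 0.731, with -0.269 without Ythdf1-/- ConA replicate 3 or both replicates 3. Between the saline groups, Igfbp2 ran from -0.123 to 0.156, with -0.0207, -0.0421 and -0.123 without WT saline replicates 2 or 3 or Ythdf1-/- saline replicate 3, and was -0.0315 with the average, and Igfbp4 was 0.0155 with rescaled libraries. Between the ConA groups, Igfbp3 ran from -0.0199 (without WT ConA replicate 3) to 0.491 and was -0.0823 without both replicates 3, and Igfbp6 ran from -0.391 to 0.134, with 0.0691, 0.134 and 0.0722 without WT ConA replicate 3 or Ythdf1-/- ConA replicate 1 or 2.

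In no comparison did every pair of libraries with the same replicate number deviate together, but some pairs did. The correlation of deviations was 0.411 for replicate 3 of the 2 ConA groups, the libraries that stood apart above. It was 0.344 and 0.236 for replicates 1 and 2 of the 2 saline groups. The other pairs had -0.198 to 0.152. Replicate 1 also had the highest stellate cell marker sum of its group throughout. That sum was 135 TPM in WT saline, 257 in Ythdf1-/- saline, 136 in WT ConA and 190 in Ythdf1-/- ConA. Whether the numbers stand for a shared batch or order was not tested. With a replicate block, 1 member, Igfbp1, was called between the ConA groups (adjusted p 0.0486) and 0 axis genes in the interaction, and the calls of Igfbp7 in WT ConA (0.64, adjusted p 0.0306) and Igfbp6 between the saline groups (adjusted p 0.0293) were gained. The depth of the libraries is unknown, and Igfbp5 and Igfbp6 lie near 1 TPM in some groups, where the added 1 shrinks their fold changes.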
